A study of Rattus norvegicus with 5 samples.

Results

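The genes described here code for receptors and granule proteins of blood platelets: Clec1b, Pf4, Ppbp, Gp1bb, Gp5, Gp9, Treml1, Itgb3, Itga2b and Clu. They were taken by symbol from the probe annotation of a dual-colour array, and 9 of the 10 had a probe there, among 14871 named genes in all. Of these, 8 had enough values to be fitted, out of 14332 named genes and 33649 genes and unnamed probes, while Gp9 was measured on 3 arrays and Itga2b was not analysed here. The genes were selected on platelet function together with their measured allograft to isograft ratios on these same arrays, so these ratios are given as a description and no test is drawn from them.

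The samples were mononuclear leukocytes washed out of the blood vessels of transplanted rat kidneys. Allografts were kidneys of F344 donors (RT1lv1) in LEW recipients (RT1l), a pair of strains with a minor difference at the class I locus of the major histocompatibility complex, and isografts were kidneys of LEW donors in LEW recipients. All rats were male. Both groups were given heparin, with 1000 IU/kg for the donors, the recipients were heparinised again when the graft vessels were perfused, and no immunosuppressive drug was used. A Percoll gradient served to deplete granulocytes and red cells, which leaves a bulk preparation in which platelets could still be present. Each of the 5 arrays set allograft RNA against isograft RNA, with the allograft in Cy5 on replicates 1, 3 and 5 and in Cy3 on replicates 2 and 4. The sources used here state neither recipient age nor the day of harvest. Arrays are labelled as biological replicates and no animal is named, so the errors measure the spread between these arrays, which may be technical in part.

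Platelets are fragments of megakaryocytes that have no nucleus and carry RNA made by their parent cell. They bind the damaged vessel wall through the glycoprotein Ib-IX-V complex, which holds von Willebrand factor, and they bind one another through the integrin pair Itga2b and Itgb3, which holds fibrinogen. Their alpha granules release chemokines and adhesion proteins on activation, and in inflamed vessels platelets attach to monocytes and other leukocytes.

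All values are log2 ratios of allograft over isograft, each from the authors' deposited table, and errors are the SE of the limma fit (5 arrays unless stated). A gene was called where its limma p, adjusted by the Benjamini-Hochberg method over all 33649 genes and unnamed probes, was under 0.05. By that rule 1.33% of genes and probes were called, 251 (0.746%) higher and 195 (0.58%) lower in allograft leukocytes. The direction is likely rather than stated, since the titles name the allograft before the isograft, and the deposited columns were read as already turned to it. The link from table rows to gene names had to be rebuilt from the values, in an order in which probes of a shared accession correlated at 0.450 over 4510 pairs, against at most 0.0245 in the other 12 orders computed.

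Of the 8 fitted platelet genes, 6 were called and all 6 were lower in allograft leukocytes, where 0.58% of all genes and probes were called lower. The genes having been selected on this contrast, nothing is read from that count. Without replicate 1, 2, 3, 4 or 5 the number called was 5, 4, 3, 4 or 4. The 6 genes were below 0 on every array, as were 10.4% of all named genes. The median of the 8 fitted ratios was -2.18, beside -0.01 for all named genes. In a bulk preparation, fewer platelets and less RNA per platelet cannot be told apart, nor from other changes in the make-up of the preparation.

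Clec1b codes for CLEC-2, the receptor through which platelets sense podoplanin and which signals through the kinase Syk. In the mouse it has also been described on some myeloid cells. Its ratio was -3.92, -2.32, -2.90, -3.33 and -3.42 on replicates 1 to 5. Replicate 1 gave the lowest value and replicate 2 the highest, and each array placed the gene below 0. The fitted ratio was -3.12 ± 0.22, an 8.68-fold lower level, or 11.5% of that in isograft leukocytes, and it was the lowest of the 14332 named genes. Ranked within the single arrays, which does not depend on their unequal spreads, Clec1b stood between position 1 on replicate 3 and position 10 on replicate 5, counted from the lowest.

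Gp1bb codes for the beta subunit of glycoprotein Ib, the part of the von Willebrand factor receptor that is bound to its ligand-binding chain by a disulphide bond. It stood at -3.89, -2.38, -2.58, -3.16 and -3.10 on replicates 1 to 5. The fitted ratio was -2.98 ± 0.23, or 12.7% of the isograft level. Gp1bb followed Clec1b closely across the arrays: the difference between the genes was -0.16 ± 0.17 (Clec1b minus Gp1bb, SD over 5 arrays), and it ran from -0.32 to 0.06. So small a spread was not particular to this pair, since Ppbp minus Clu, at 1.78, had an SD of 0.15.

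Gp5, the subunit of the same complex that thrombin cleaves, was less reduced. Its ratio was -2.03, -1.53, -1.69, -0.30 and -1.49 on replicates 1 to 5, so 4 arrays lay close together and replicate 4 stood nearer to 0. The fitted ratio was -1.32 ± 0.21, or 40.0% of the isograft level. On each array Gp5 lay above Gp1bb, with a difference of -1.61 ± 0.83 (Gp1bb minus Gp5, SD over 5 arrays). Gp5 was no longer called with quantile normalization (-1.60), with arrays scaled to a common spread (-1.48), or when replicate 1, 2, 3 or 5 was left out.

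Gp9, the small subunit that the complex needs to reach the platelet surface, had values on replicates 2, 4 and 5 alone, at -0.83, -0.94 and -0.59. These are all below 0, but fewer than the 4 arrays needed for the fit. The 3 measured subunits of the complex thus gave unequal ratios, Gp1bb being the lowest of them on every array where both had a value.

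Treml1 codes for TLT-1, a receptor kept in alpha granules that moves to the surface of activated platelets and binds fibrinogen. It was the single gene among the 9 with more than 1 probe. The probes gave different sizes and the same direction: one stood at -4.13, -2.12, -2.38, -3.60 and -2.74 on replicates 1 to 5 (fitted -2.97 ± 0.32), and the other at -2.35, -1.45, -1.11, -1.44 and -1.15 (fitted -1.49 ± 0.22). Their average was fitted at -2.23 ± 0.25, or 21.3% of the isograft level. The average lay above both Clec1b and Gp1bb on 5 of 5 arrays, whereas the lower probe alone lay below both on replicates 1 and 4. As an average, Treml1 was not called without replicate 3, 4 or 5, its ratio then running from -2.37 to -2.05.

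Itgb3, the beta chain of the fibrinogen receptor and also a subunit of the vitronectin receptor of endothelial cells and macrophages, differed little. It stood at -0.33, 0.02, -0.27 and -0.09 on replicates 1, 3, 4 and 5, with no value on replicate 2. The fitted ratio was -0.20 ± 0.18 over 4 arrays and was not called. On each of these arrays Itgb3 lay above Clec1b, the difference (Clec1b minus Itgb3) running from -3.59 to -2.92.

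Pf4 and Ppbp code for CXC chemokines of the alpha granule. Pf4, also called CXCL4, binds heparin and related glycans, and Ppbp is the precursor of CXCL7, which attracts neutrophils. The genes are neighbours on rat chromosome 14 in the GRCr8 assembly, Pf4 at 17582477-17583392 and Ppbp at 17586495-17587299, with 3103 bases between them.

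These neighbours gave unlike ratios. Pf4 stood at -3.29, -2.98, -2.42, -3.64 and -3.08 on replicates 1 to 5, with replicate 4 the lowest and replicate 3 the highest. Its fitted ratio was -3.12 ± 0.19, or 11.5% of the isograft level. Ppbp stood at -1.25, -0.27, -0.18, -0.36 and 0.11 on the same arrays, so replicate 1 alone was far below 0 and replicate 5 was above it. Its fitted ratio was -0.38 ± 0.22, or 77.1% of the isograft level, and was not called; without replicate 1 it was -0.17. The ranges of these genes did not overlap, and Pf4 lay below Ppbp on 5 of 5 arrays, with a difference of -2.69 ± 0.55 (Pf4 minus Ppbp, SD) that ran from -3.28 to -2.04. Each gene rested on 1 probe, and spot intensities, and with them any saturation of a bright spot, were not used here.

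Clu codes for clusterin, a secreted chaperone stored in platelet granules and made by many other cells, injured kidney tubules among them. Its ratio was -3.24, -1.98, -1.91, -1.97 and -1.74 on replicates 1 to 5. Replicates 2 to 5 lay within a narrow band and replicate 1 stood well below them. The fitted ratio was -2.13 ± 0.24, or 22.8% of the isograft level, and -1.90 without replicate 1. Clu and the average of the Treml1 probes were alike in size, differing by -0.08 ± 0.30 (Treml1 minus Clu, SD over 5 arrays). Clu was not called without replicate 2, 3 or 4, although its ratio then stayed between -2.23 and -2.13. Of the 20 fitted tubule and podocyte markers 0 were called, beside 1.33% of all genes and probes, and their median was -0.08. At an unadjusted p under 0.05 in limma there was 1 of them, beside 2153 of all 14332 named genes. Which cells the Clu RNA came from was not tested.

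**Figure D1:**
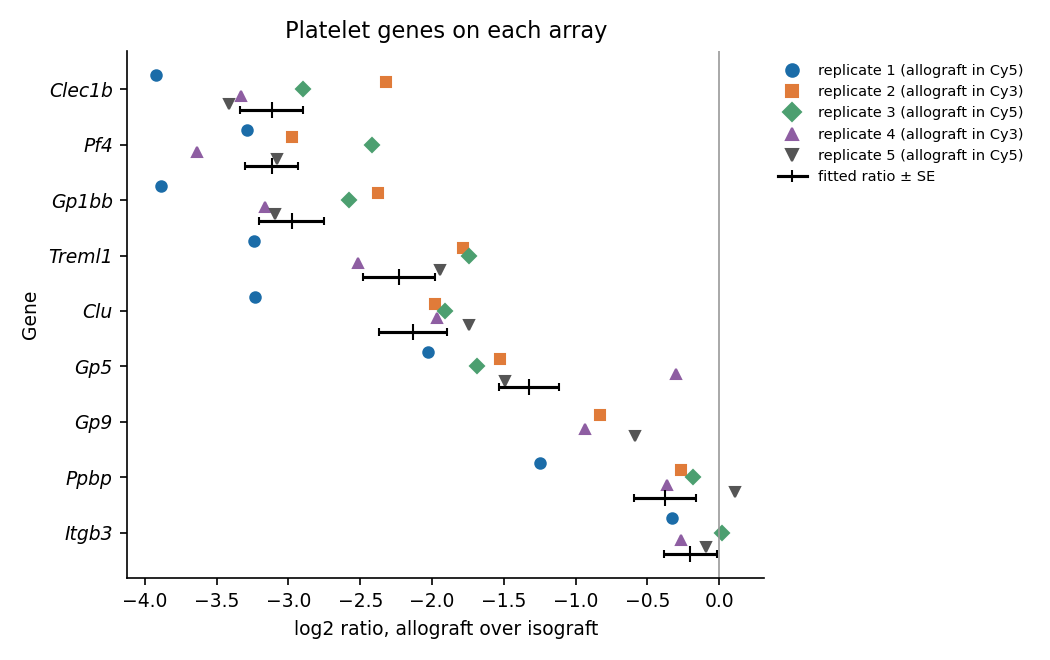
Log2 ratio of allograft over isograft (horizontal axis) for the 9 platelet genes with values (rows), with 1 point for each array and the fitted ratio ± SE in black for the 8 that were fitted. Clec1b, Pf4 and Gp1bb lie at -2.32 or lower on every array, whereas Ppbp and Itgb3 reach 0.11 and 0.02.

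The platelet genes gave ratios of several sizes. Clec1b, Pf4 and Gp1bb could not be ordered among themselves, their mean differences (-0.16 to -0.06) being smaller than or close to the SD of those differences (0.17 to 0.55). Treml1 and Clu came next and lay above each of those 3 genes on 5 of 5 arrays, although on replicate 1 both were only just above Pf4, which stood at -3.29. For Treml1 this holds for the average of its probes. Its lower probe alone, fitted at -2.97, was not set apart from those 3 genes, and its other probe was fitted at -1.49. The other genes rested on 1 probe each. Ppbp and Itgb3 lay above all of the genes named so far, and did not differ from each other beyond their spread (-0.25 ± 0.48, Ppbp minus Itgb3, SD over 4 arrays). Gp5 lay between, below Ppbp on 4 of 5 arrays.

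Replicate 1 gave the lowest ratio for 7 of the 8 fitted genes, and replicate 4 for Pf4. The SD of all log2 ratios was 0.736 on replicate 1, 0.506 and 0.521 on replicates 2 and 3, and 0.847 and 0.835 on replicates 4 and 5, so replicate 1 was not the array with the widest spread. The ratios were also compared between the dye orientations. For the 6 called genes the mean ratio over the arrays with the allograft in Cy5 ran from -3.41 to -1.73, and over those with the allograft in Cy3 from -3.31 to -0.91, with Gp5 closest to 0 in both. The dye effect, fitted from the same ratios on which the genes were selected, ran from -0.41 for Gp5 to 0.19 for Pf4 in the limma fit (adjusted p = 0.486 to 0.930). It was called for 0 of the 8 genes (0 at an unadjusted p under 0.05) and for 0% of named genes (1270 at an unadjusted p under 0.05). Nothing particular to these genes is read from that. Each gene but Treml1 rested on a single spot, and the local trend of the array around the members' spots was between -0.20 and 0.31.

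**Figure D2:**
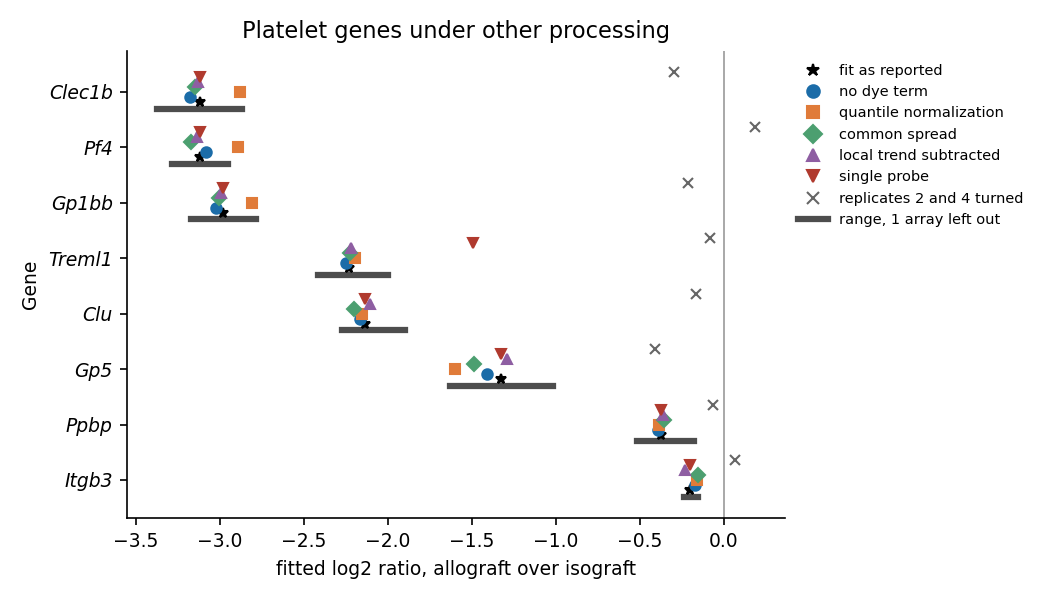
Fitted log2 ratio of allograft over isograft (horizontal axis) for the 8 fitted platelet genes (rows) as reported and under other processing, with bars for the range when 1 array was left out. Clec1b, Pf4 and Gp1bb stay at -2.78 or lower in the settings drawn other than the one with replicates 2 and 4 turned, where the 8 values run from -0.41 to 0.19; row numbers taken as probe numbers, not drawn, gave -0.04 for Clec1b and 0.26 for Pf4.

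Sequence around the starts of the genes was taken from RefSeq promoter windows of the GRCr8 assembly, from 250 bases before to 50 bases after a start base, which matched 7 of the 10 symbols. For 5 of these the start base was the first base of the annotated gene, whereas for Clec1b it lay 122 bases and for Itga2b 392 bases downstream of it. Those of 4 genes that fell, and that of Ppbp, which did not pass the threshold, are printed. Both strands were searched for AGATAA and TGATAA (bound by GATA factors), CAGGAA and CCGGAA (ETS factors) and TGANTCA (NF-E2 and AP-1 factors), and capitals mark the matches. Megakaryocyte genes are known to be driven by GATA1 together with ETS factors such as FLI1, and by NF-E2.
Clec1b, chr4:164533859-164534158, plus strand: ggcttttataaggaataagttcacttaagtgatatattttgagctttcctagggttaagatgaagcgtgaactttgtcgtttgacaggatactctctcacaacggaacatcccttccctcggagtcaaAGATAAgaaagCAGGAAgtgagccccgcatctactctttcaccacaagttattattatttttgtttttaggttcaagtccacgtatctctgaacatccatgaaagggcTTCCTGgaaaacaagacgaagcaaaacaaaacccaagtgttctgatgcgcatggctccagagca
Gp1bb, chr11:95882311-95882610, plus strand: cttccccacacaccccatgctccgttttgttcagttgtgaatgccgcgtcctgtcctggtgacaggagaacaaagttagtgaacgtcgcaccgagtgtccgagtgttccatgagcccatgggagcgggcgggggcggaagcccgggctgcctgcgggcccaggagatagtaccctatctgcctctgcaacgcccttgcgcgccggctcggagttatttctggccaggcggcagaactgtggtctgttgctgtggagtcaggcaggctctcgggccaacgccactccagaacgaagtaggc
Gp5, chr11:83948257-83948556, plus strand: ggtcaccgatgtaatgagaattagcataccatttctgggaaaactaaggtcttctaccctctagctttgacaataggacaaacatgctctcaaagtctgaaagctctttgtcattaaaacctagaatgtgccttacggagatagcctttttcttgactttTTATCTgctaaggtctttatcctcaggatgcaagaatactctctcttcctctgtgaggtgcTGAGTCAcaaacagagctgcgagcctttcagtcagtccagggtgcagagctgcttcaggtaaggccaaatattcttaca
Treml1, chr9:20139884-20140183, minus strand: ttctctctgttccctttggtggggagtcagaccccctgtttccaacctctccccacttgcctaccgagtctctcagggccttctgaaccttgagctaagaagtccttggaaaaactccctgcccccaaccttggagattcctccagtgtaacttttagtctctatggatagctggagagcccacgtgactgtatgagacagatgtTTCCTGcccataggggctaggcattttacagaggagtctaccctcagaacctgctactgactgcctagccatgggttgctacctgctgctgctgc
Ppbp, chr14:17587250-17587549, minus strand: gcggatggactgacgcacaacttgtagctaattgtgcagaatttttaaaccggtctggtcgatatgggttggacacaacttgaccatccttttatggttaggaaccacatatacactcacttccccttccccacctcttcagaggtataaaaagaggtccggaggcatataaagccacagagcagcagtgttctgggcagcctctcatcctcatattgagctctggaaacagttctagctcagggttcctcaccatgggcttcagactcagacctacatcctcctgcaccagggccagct

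Positions are counted from the start base of the window, which is 1, and give the leftmost base of a match on the gene's coding strand. Clec1b held AGATAA at -122 and CAGGAA at -111, with CAGGAA on the opposite strand at -14. Counted from the first base of the annotated Clec1b gene these are positions 1, 12 and 109, so none of them lies before that base. Gp5 held AGATAA on the opposite strand at -90 and TGANTCA at -29, and Treml1 held CAGGAA on the opposite strand at -45. The windows of Gp1bb, among the 3 lowest ratios, and of Ppbp, which was not called, held none of these letters. No window matched Pf4, Itgb3 or Clu, and whether these letters bear on the ratios was not tested. Of all 33469 promoter windows, 18.9% held AGATAA or TGATAA, 40.0% held CAGGAA or CCGGAA and 7.33% held TGANTCA. Among the 7 platelet genes with a window the counts were 3, 4 and 1, which include Gp9 and the unmeasured Itga2b. A match is a run of letters and not a measured site, and no match says only that these letters are not in the window.

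Other genes of the platelet lineage were taken from 4 lists, of further receptors, further granule proteins, signalling and structural proteins, and megakaryocyte transcription factors. Of their 70 fitted genes 7 fell and 0 rose, and their median was -0.14. Of all 14332 named genes 99 were called lower and 7333 had a fitted ratio below 0, which is the background of the counts given for each list. Those counts below 0 are likewise of fitted ratios and not of single arrays. Srgn was called higher with no dye term and with quantile normalization. The count rested on all arrays: it was 1, 4, 3, 0 or 1 without replicate 1, 2, 3, 4 or 5. Myl9 was called in 4 of these 5 fits, Gfi1b without replicate 2 or 3, Vwf and F13a1 without replicate 2 and F2rl2 without replicate 3. These lists were written with results of the series known.

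Among 17 further receptors 1 fell (median -0.24, 14 below 0). It was F2rl2, the thrombin receptor PAR3 of rodent platelets, at -1.87, -1.44, -1.07, -1.55 and -1.40 on replicates 1 to 5 (fitted -1.47 ± 0.16, adjusted p = 0.0130 in limma). The scavenger receptor Cd36 (-0.84 ± 0.17, adjusted p = 0.0676), the junctional molecule F11r (-0.55 ± 0.14) and the tetraspanin Cd9 (-0.53 ± 0.20) did not pass. For Cd36 the probes differed, at -1.65 and -0.04, and the lower one passed when fitted singly.

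Of 16 further granule proteins 2 fell, 10 were below 0 and the median was -0.13. Vwf, the ligand of the glycoprotein Ib complex and a product of endothelial cells too, was fitted at -1.31 ± 0.17 (adjusted p = 0.0209 in limma), with probes at -1.88 and -0.74. F13a1, the clot-stabilising transglutaminase chain, which monocytes and macrophages also make, was at -1.10, -1.27, -0.64, -1.94 and -0.996 on replicates 1 to 5 (fitted -1.26 ± 0.16, adjusted p = 0.0206 in limma). Coagulation factor F5 (-0.71 ± 0.19), the growth factor Vegfc (0.72 ± 0.17) and the granule proteoglycan serglycin, Srgn (0.73 ± 0.13, adjusted p = 0.0578), did not pass. The 3 probes of F5 disagreed, at -1.58, -0.44 and -0.12, and the lowest passed when fitted singly. Srgn is abundant in leukocytes as well, and it lay above 0 on 5 of 5 arrays. Its adjusted p was 0.0394 in limma with no dye term and 0.0457 with quantile normalization.

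Of 30 signalling, structural and secretion genes 2 fell, 16 were below 0 and the median was -0.01. Myl9, a myosin regulatory light chain of platelets and smooth muscle, was fitted at -1.68 ± 0.15 (adjusted p = 0.00736 in limma). Its 3 probes disagreed, at -3.49, -1.69 and 0.15. Gnaz, a G protein alpha subunit found in platelets and neurons, was at -1.78, -1.47, -1.43, -1.21 and -0.46 on replicates 1 to 5 (fitted -1.28 ± 0.21, adjusted p = 0.0446 in limma). Gnaz was not called with quantile normalization (-1.47, adjusted p = 0.0886), with arrays scaled to a common spread (-1.40, adjusted p = 0.0858) or with any array left out. The G protein gamma subunit Gng11 (-0.95 ± 0.18, adjusted p = 0.0655), the platelet lipoxygenase Alox12 (-0.86 ± 0.20) and the adaptor Parvb (-0.65 ± 0.14) did not pass, though each was below 0 on 5 of 5 arrays. The probes of Gng11 stood at -1.64 and -0.25, the lower one passing when fitted singly, and their average was called lower with quantile normalization (adjusted p = 0.0397 in limma) and with a common spread (adjusted p = 0.0475).

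Of 7 transcription factors that act in megakaryocytes 2 fell, all 7 fitted ratios were below 0 and the median was -0.61. The list was not uniform by array. Gata2 (fitted -0.16) was below 0 on 1 of 4 arrays, Fli1 (-0.07) on 3 of 5 and Runx1 on 4 of 5. Gfi1b, Tal1, Nfe2 and Gata1 were below 0 on every array with a value. Several of these factors also act in red cell precursors. Gfi1b, a repressor, was at -2.34, -1.35, -1.55, -1.996 and -2.49 on replicates 1 to 5 (fitted -1.90 ± 0.19, adjusted p = 0.0103 in limma). Tal1 was fitted at -1.02 ± 0.16 (adjusted p = 0.0398 in limma), its 3 probes standing at -2.30, -0.62 and -0.13. Fitted singly, the probe at -2.30 passed and that at -0.62 did not (adjusted p = 0.207 in limma), and with any array left out Tal1 was not called. Nfe2 (-0.80 ± 0.16, adjusted p = 0.0702), Gata1 (-0.61 ± 0.21, 4 arrays) and Runx1 (-0.32 ± 0.15) did not pass. Nfe2 was called lower with no dye term (adjusted p = 0.0491 in limma).

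**Figure D3:**
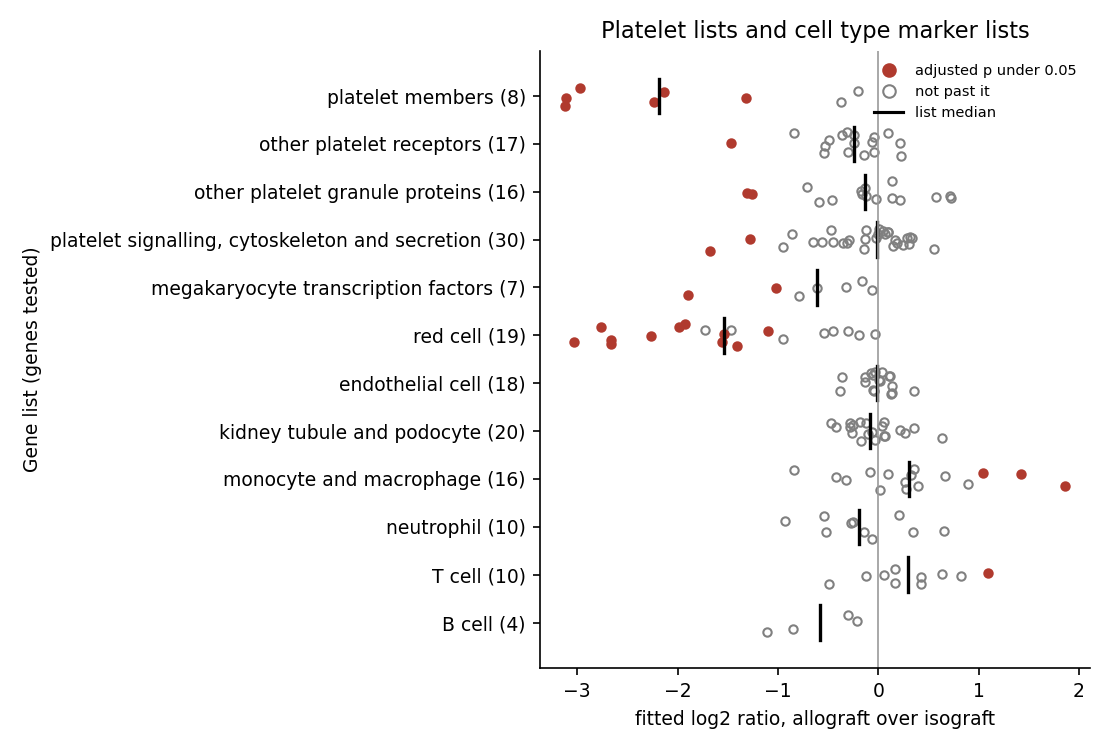
Fitted log2 ratio of allograft over isograft (horizontal axis) for each gene of the platelet lists and of markers of other cell types (rows, with the number of genes fitted), filled where the adjusted p was under 0.05; vertical bars are list medians. The platelet genes, which were selected on these ratios, and the red cell markers have the lowest medians, at -2.18 and -1.54.

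Red cell markers were lower on the same arrays. Of 19 fitted, 11 were called lower and all 19 fitted ratios were below 0, with a median of -1.54. Of all 14332 named genes 99 were called lower and 7333 were below 0. Without replicate 1, 2, 3, 4 or 5 the number called was 2, 7, 8, 3 or 3. On replicates 1 to 5 the median ratio was -3.24, -1.98, -1.83, -2.24 and -1.84 for the platelet genes and -1.91, -1.49, -1.22, -1.69 and -1.76 for the red cell markers. The platelet median was the lower on each array, most on replicate 1 and by little on replicate 5. The platelet genes had been selected on these ratios, so nothing is read from that order. Whether the platelet genes moved because of what moved the red cell markers was not tested.

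The remaining marker lists moved less. Endothelial markers had a median of -0.02 with 0 of 18 called (2 at an unadjusted p under 0.05), and neutrophil markers -0.20 with 0 of 10 called (4 at an unadjusted p under 0.05). Of all 14332 named genes 2153 had an unadjusted p under 0.05 in limma. Monocyte and macrophage markers had a median of 0.30 with 3 of 16 called higher, Apoe (1.04 ± 0.14), Cd14 (1.42 ± 0.17) and C1qa (1.86 ± 0.17). Over all genes and probes 0.746% were called higher. The list did not move as 1 group, since 4 of the 16 had a fitted ratio below 0. Among these, Ccr2 (-0.85 ± 0.18) and Cx3cr1 (-0.33 ± 0.13) were below 0 on 5 of 5 arrays and were not called. Without replicate 1, 2, 3, 4 or 5 the number called was 1, 2, 0, 1 or 0, and it was 0 with arrays scaled to a common spread. T cell markers stood at 0.29, with Cd3e called higher (1.10 ± 0.15). Cd3e was not called with any array left out or with a common spread. B cell markers stood at -0.58, with 0 of 4 called (2 at an unadjusted p under 0.05), among them Cd79b (-1.11 ± 0.20, adjusted p = 0.0561). Every value is a ratio centred on the whole preparation, so levels in allograft or isograft leukocytes alone are not known.

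**Figure D4:**
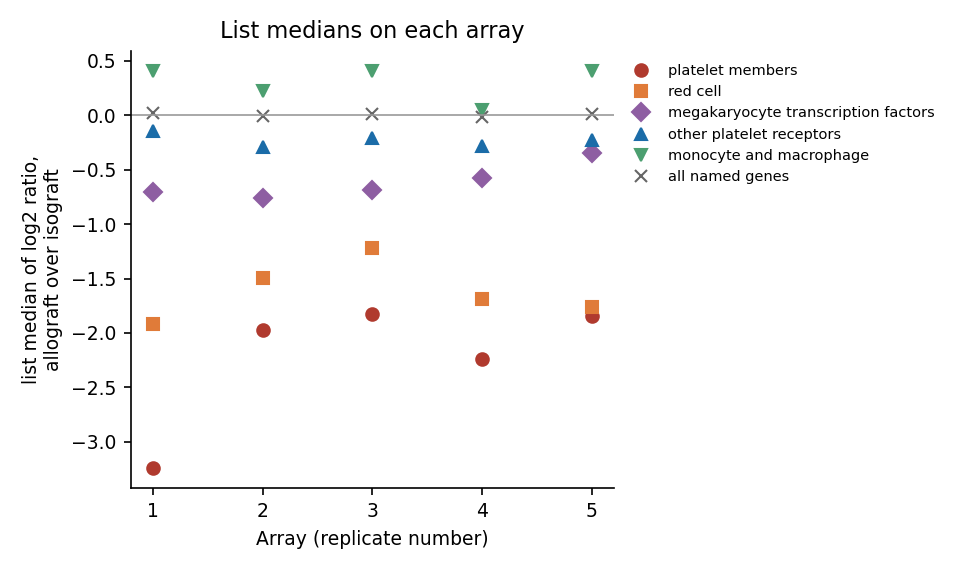
Median log2 ratio of allograft over isograft (vertical axis) of 5 gene lists and of all named genes on each of the 5 arrays (horizontal axis, replicate number). The platelet genes, which were selected on these ratios, lie lowest on every array, from -3.24 on replicate 1 to -1.83 on replicate 3. The red cell markers lie next, and the median of the monocyte and macrophage markers is above 0 on each.

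The genes outside the platelet set whose ratios were most like those of Pf4 were sought among the 13331 named genes with values on all arrays, by the root mean square difference over the 5 arrays. Gp1bb (0.441) and Clec1b (0.506) came first among all genes. This measure grows with any gap in size, so genes among the lowest ratios lie near Pf4. Clec1b, Pf4 and Gp1bb ranked 1, 2 and 4 from the lowest of 14332 named genes, and had been selected on these ratios. The 5 nearest others were the red cell skeleton protein Add2 (0.511), the globin Hbe2 (0.514), the matrix proteoglycan Bgn (0.523), the phospholipase Pla1a (0.573) and the beta-globin Hbb-b1 (0.587). Of these 5, 3 are in the red cell list, of which 19 genes were fitted and 11 called lower. The fitted ratios of the 5 ran from -3.04 for Hbb-b1 to -2.66 for Hbe2. All 5 were thus strongly lowered, and no likeness of pattern is read from this order. Treml1 and Clu lay farther off (0.939 and 1.08), Gp5 farther still (1.89), and Ppbp was at 2.74, in position 1119 of that order.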

How the data were processed

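The authors deposited 1 table of log2 ratios, a value per spot and array; the sources used here state no log base, scanner, background correction or normalization. The values lie between -5.15 and 5.25, too wide for log10, but the natural log cannot be told from base 2, so folds hold for base 2. Array medians lie between -0.01 and 0.03, so the columns were centred. Values exist for 41033 to 43286 of 44290 spots; precision is limited by there being 5 arrays. Table rows were put in register with the platform annotation as a layout of 103 rows by 430 columns, 215 columns of one parity first. The annotation names 1 gene for 23535 probes, several for 48 and none for 20707; symbols were updated through Entrez numbers with RefSeq's GRCr8 table. Probes of a gene were averaged. Near-identical genes such as globins can cross-hybridise. A set of 407 unnamed spots whose ratio followed the dye (mean over 3) was not tested. Rows with values on 4 of 5 arrays and both dye orientations entered a two-sided limma 3.58.1 test under R 4.3.3, by lmFit and eBayes with graft and dye effects and a Benjamini-Hochberg threshold of 0.05. The code was tested on simulated data. Members, lists and tests were chosen with earlier results of these data known. Text names all members, every called gene of the 4 platelet lists and the 3 uncalled ones with the largest ratio in each, and the 5 genes nearest to Pf4; markers of other cells are named by example. The 15 alternatives are listed with the results below.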

Additional observations from a re-analysis of the deposited data

Results flagged for a closer look

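One value among 27 genes looked at stood apart from the other arrays by Dixon's test at the 95% level, which flags about 1 in 20 groups by chance. It was Clu on replicate 1, at -3.24 against -1.98 to -1.74 on the other 4 arrays, a gap of 0.844 of the whole range. Without replicate 1 the fitted ratio of Clu was -1.90 and the gene was still called.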

How the results depend on the processing

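Of the 15 alternatives, 7 kept 5 or 6 platelet genes called and gave 310 to 634 called genes and probes against 446: no dye term, quantile normalization, arrays scaled to a common spread, probes measured on all arrays, each probe by itself, dye-following spots kept and a local trend subtracted. With arrays scaled to a common spread 97 were higher and 213 lower in allograft leukocytes, a higher share of 31.3% against 56.3%. For each probe by itself, platelet genes were counted by 1 probe each, that with the most arrays and then the lowest number. For Treml1 this was the probe at -1.49, and for Tal1 that at -0.62. With 1 array left out, 3 to 5 platelet genes, 0 to 4 genes of the other platelet lists and 64 to 147 genes and probes were called. In an unmoderated limma fit 0 platelet genes, 0 genes of the other platelet lists and 0 genes and probes passed, against 6, 7 and 446, with 6 platelet genes and 4477 genes and probes at an unadjusted p under 0.05. With replicates 2 and 4 turned, which exchanges graft and dye effect, 0, 0 and 0 passed, with 3820 genes and probes at an unadjusted p under 0.05, and signs changed for Pf4 (0.19), Itgb3 (0.0653), F2rl2 (0.0242), Cd9 (0.37), Vwf (0.0943), F13a1 (0.35), Srgn (-0.0177), Gnaz (0.0578), Gng11 (0.13), Alox12 (0.32), Parvb (0.0136), Tal1 (0.16), Nfe2 (0.0190) and Gata1 (0.15). With row numbers taken as probe numbers 0 platelet genes passed, and signs changed for Pf4 (0.26) and Ppbp (0.49). Other settings changed no sign of the genes named from the platelet lists, with each probe by itself read from 1 probe per gene. A further Myl9 probe, fitted singly, stood at 0.15. The cause of the sign changes was not tested. Every array sets an allograft sample against an isograft sample, so the fit of these ratios is itself paired by array. With 1 group of arrays, no other pairing was fitted. Background correction and a filter on dim spots could not be varied, since intensities were not used here.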
